A study of Mus musculus with 4 samples.

Results

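*Klf2*, *Klf4*, *Nos3*, *Thbd* and *Klk10* are genes that endothelial cells (EC) raise under high, unidirectional shear stress. They were taken by symbol from the tables of unique molecular identifiers (UMIs, 1 per captured transcript) of 4 mouse aortas, and make up 5 of the 16408 genes listed outside the mitochondrial genome. All 5 were found in each of the 4 mice and all 5 passed the filter on low counts. The study profiled single cells of the aorta from mice with and without deletion of the hypoxia-responsive transcription factor *Epas1* in EC, to ask what endothelial EPAS1 does in the artery wall. Cells were released by digestion, sorted as CD31+ CD45- TO-PRO-3- (endothelial surface marker present, leukocyte marker absent, dye-excluding) into 384-well plates, and sequenced from the 3′ end of each transcript by SORT-seq, with 1 plate and 1 mouse per sample. The group labelled Epas1 EC-KO held 2 mice of the genotype Epas1fl/fl, Cdh5Cre/+. The group labelled Epas1 EC-WT held 2 mice of the genotype Epas1fl/fl, Cdh5+/+. All 4 mice therefore carried the floxed *Epas1* allele and differed in the Cre, an inducible CreERT2 driven by the *Cdh5* (VE-cadherin) promoter, which is active in EC of all vessels and not in those of the aorta alone. All 4 were on a C57BL/6 background and received tamoxifen from 6 weeks of age, 2 mg per mouse per day for 5 days, and aortas were taken 2 weeks later. The tissue pooled the arch with the ascending, descending, thoracic and abdominal aorta after removal of the adventitia, so regions of high and of disturbed flow cannot be separated within a mouse.

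Blood flow is sensed by EC and passed through a kinase cascade (MEKK2 or MEKK3, MEK5 and ERK5) to MEF2 transcription factors, which switch on the genes of the Krüppel-like factors KLF2 and KLF4. These zinc finger proteins bind CACCC-type and GC-rich sequences and drive a quiescent, anti-thrombotic and anti-inflammatory state of the endothelium. Among the genes they support are *Nos3*, which encodes endothelial nitric oxide synthase and so the main source of vasodilating nitric oxide in the vessel wall, and *Thbd*, which encodes thrombomodulin, the thrombin receptor that turns thrombin towards activation of protein C. *Klk10* encodes a secreted member of the kallikrein family of serine proteases and is known as an endothelial gene that is high under stable flow and low under disturbed flow.

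On GRCm38 (GENCODE M21) the protein-coding gene *Klf2* spans chr8:72319033-72321656 on the plus strand and *Klf4* chr4:55527143-55532466 on the minus strand. *Nos3* spans chr5:24364810-24384474 on the plus strand, *Thbd* chr2:148404466-148408188 on the minus strand and *Klk10* chr7:43781035-43785410 on the plus strand. RefSeq promoter entries of the build GRCm38.p6 matched 3 of the 5 genes. The 250 bases before the RefSeq start of each are shown because *Klf2* and *Klf4* varied together between cells, and *Klk10* less so on the mean over mice, and because MEF2 and KLF factors act through such elements. Capitals mark matches to CACCC and to a strict form of the MEF2 consensus (CTA, then 4 bases that are each A or T, then TAG), each searched on both strands. The 3 windows are chr8:72318812-72319061 (plus strand, *Klf2*), chr4:55532476-55532725 (minus strand, *Klf4*) and chr7:43780804-43781053 (plus strand, *Klk10*), each written 5′ to 3′ on the strand of the gene. The RefSeq start lies 29 bases inside the GENCODE span given above for *Klf2* and 19 bases inside it for *Klk10*, and 9 bases before it for *Klf4*, and positions below are counted from the RefSeq start.
Klf2: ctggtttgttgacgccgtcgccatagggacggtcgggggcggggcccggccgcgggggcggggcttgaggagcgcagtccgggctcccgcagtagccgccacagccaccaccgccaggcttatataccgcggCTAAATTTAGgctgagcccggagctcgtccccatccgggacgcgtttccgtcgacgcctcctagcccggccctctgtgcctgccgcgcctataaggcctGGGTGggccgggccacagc
Klf4: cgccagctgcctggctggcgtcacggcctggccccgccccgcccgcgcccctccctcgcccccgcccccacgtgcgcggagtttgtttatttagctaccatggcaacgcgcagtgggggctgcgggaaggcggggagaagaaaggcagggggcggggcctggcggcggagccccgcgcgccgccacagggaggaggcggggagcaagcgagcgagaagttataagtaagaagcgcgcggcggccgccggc
Klk10: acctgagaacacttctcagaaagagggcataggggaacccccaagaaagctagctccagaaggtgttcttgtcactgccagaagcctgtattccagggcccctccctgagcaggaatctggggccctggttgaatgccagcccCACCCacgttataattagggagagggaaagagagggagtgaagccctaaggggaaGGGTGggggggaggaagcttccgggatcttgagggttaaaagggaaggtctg
The *Klf2* window held 1 match to the strict MEF2 form, CTAAATTTAG, from 118 to 109 bases before the start, and 1 match to CACCC on the opposite strand, from 19 to 15 bases before it and so inside the GENCODE span. A match to the strict MEF2 form was present in 0.508% of the 32851 promoter windows of the same length (167 windows), and a match to CACCC in 52.0% of them (17087 windows). *Klf4* held neither, and *Klk10* held 2 matches to CACCC, from 107 to 103 bases before the start on the strand of the gene and from 52 to 48 bases before it on the other. A looser MEF2 form, searched after the windows had been seen, which also takes T as the first and A as the last base, was present in 2.92% of all windows. It matched once in *Klf2*, at the same place, once in *Klk10*, from 99 to 90 bases before the start (left in lower case above), and 0 times in *Klf4*. GC content was 71.2% for *Klf2*, 74.0% for *Klf4* and 56.0% for *Klk10*, against a median of 52.4% over all windows. The first 2 windows held 29 and 32 CG pairs and the *Klk10* window 2. The overlap of these letters with any bound factor was not measured here.

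A well counted as a cell where it held at least 1000 UMIs outside the spike-in and mitochondrial rows and at most 25% of its UMIs on mitochondrial genes. This kept 441 of 1536 wells, with 157 and 98 cells in EC-KO mice 1 and 2 and 114 and 72 cells in EC-WT mice 1 and 2, and with medians of 3779 to 7419 UMIs per cell. The filter kept 255 cells of the mice labelled EC-KO and 186 of those labelled EC-WT. The study's methods give the larger number of cells to the EC-WT group, the opposite order. Whether the labels of the plates were exchanged was not tested. Every direction below is given as labelled, and would turn if they were. *Epas1* was at 2849 and 3031 CPM (its UMIs per 1000000 UMIs of the mouse) in the EC-KO mice and at 3069 and 2190 CPM in the EC-WT mice, a log2 fold change of 0.19 ± 0.22 (SE) with an edgeR adjusted p of 0.961. Which part of the gene Cre removes is not given in the sources used here. The 3′ end of a shortened transcript could still be counted, so these values check no label. The paper checked the deletion in this mouse line by PCR on RNA of the endothelium and by staining of the aortic surface. Of 6 clusters, 1 of 15 cells was smooth muscle-like (*Tagln*, *Acta2* and *Myh11* led it) and was set aside, which left 426 cells. In these, the 12 endothelial markers summed to 9692 to 12491 CPM per mouse and the listed immune markers to 1.65 to 5.99 CPM. Libraries of EC-KO mouse 2 and EC-WT mouse 1 were sequenced on the same flow cell, and the other 2 mice each on one of their own.

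*Klf2* differed 2.90-fold between the highest and the lowest mouse, the widest range of the 5 genes, and most of this range lay within the groups. Its level, summed over the cells of a mouse, was 701 CPM in EC-KO mouse 1 (776 UMIs), 1463 CPM in EC-KO mouse 2 (1220 UMIs), 906 CPM in EC-WT mouse 1 (635 UMIs) and 505 CPM in EC-WT mouse 2 (306 UMIs). EC-KO mouse 2 was the highest and EC-WT mouse 2 the lowest, and EC-KO mouse 1 lay below EC-WT mouse 1, so the groups overlapped. In sums of this kind, fewer cells with a transcript and fewer transcripts per cell cannot be told apart. The median cell held 3 *Klf2* UMIs in EC-KO mouse 1, 11 in EC-KO mouse 2, 4 in EC-WT mouse 1 and 2 in EC-WT mouse 2. The tenth of cells with the most *Klf2* UMIs held 45.7%, 32.7%, 38.1% and 41.2% of the total in the same order.

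*Klf4* was at 659 and 940 CPM in EC-KO mice 1 and 2 (729 and 784 UMIs) and at 656 and 456 CPM in EC-WT mice 1 and 2 (460 and 276 UMIs). Both EC-KO mice lay above both EC-WT mice, but EC-KO mouse 1 and EC-WT mouse 1 were nearly level. Both of the factors were thus highest in EC-KO mouse 2 and lowest in EC-WT mouse 2.

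Among the targets, *Nos3* was at 510 and 703 CPM in EC-KO mice 1 and 2 (564 and 586 UMIs) and at 578 and 456 CPM in EC-WT mice 1 and 2 (405 and 276 UMIs). The groups overlapped, and EC-KO mouse 2 was again the highest. *Thbd* was at 715 and 838 CPM in the EC-KO mice (791 and 699 UMIs) and at 693 and 700 CPM in the EC-WT mice (486 and 424 UMIs). It was the steadiest of the 5 genes, with a 1.21-fold range over the 4 mice, and its groups did not overlap. With every cell thinned to 1000 UMIs its order turned, to 0.752 and 0.809 UMIs per cell in the EC-KO mice against 0.876 and 0.843 in the EC-WT mice (log2 fold change of -0.20). *Klk10* was at 644 and 837 CPM in the EC-KO mice (713 and 698 UMIs) and at 1072 and 464 CPM in the EC-WT mice (752 and 281 UMIs). Its highest and lowest values both came from the EC-WT group. In EC-WT mouse 2, a single cell supplied 17.8% of the *Klk10* UMIs (50 UMIs). The mice that shared a flow cell, EC-KO mouse 2 and EC-WT mouse 1, were the highest of the 4 for *Klf2*, *Nos3* and *Klk10*, and the part of the flow cell in this order was not tested.

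**Figure D1:**
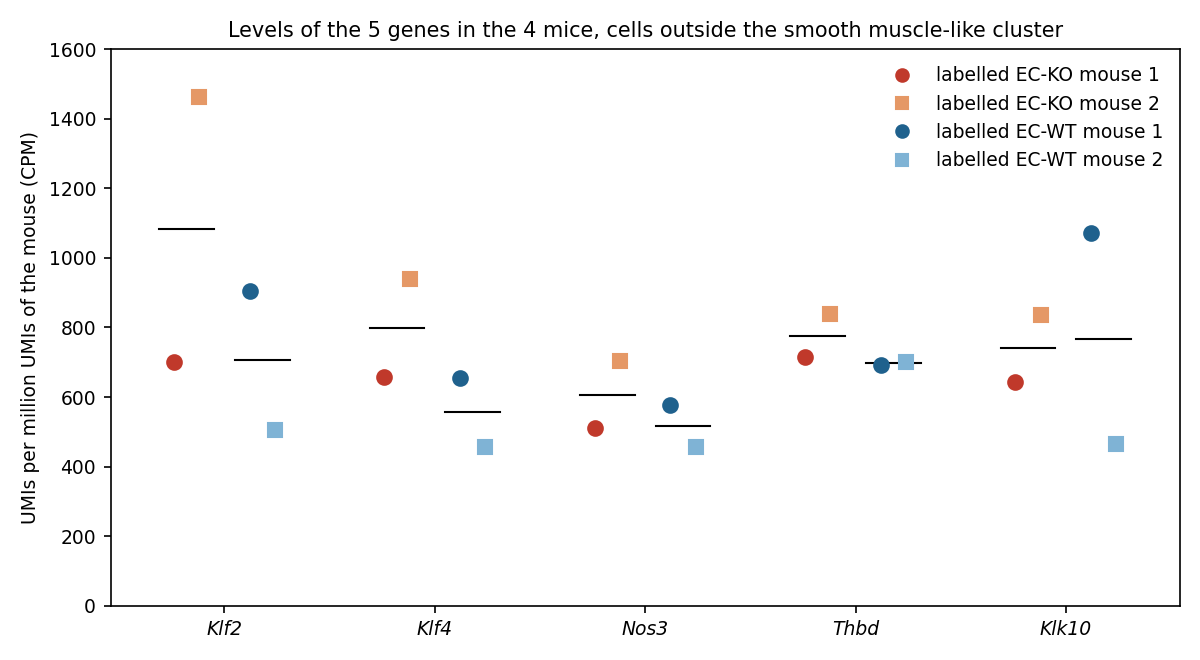
CPM (linear axis from 0) of the 5 genes in each of the 4 mice, as points, with black bars for the mean of the 2 mice of a group. *Klf2* runs from 505 to 1463 CPM with overlapping groups, *Thbd* stays between 693 and 838 CPM, and *Klk10* has both its extremes, 464 and 1072 CPM, in the mice labelled EC-WT.

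None of the 5 genes was called different between the mice labelled EC-KO and EC-WT. The comparison used edgeR's quasi-likelihood test on UMIs summed per mouse over 8161 genes, called at a Benjamini-Hochberg adjusted p of 0.05, and 1 of these genes passed (0.0123%). By unadjusted p under 0.05, edgeR found 447 genes (5.48%), of which *Klf4* was one. The called gene was *Acta2*, smooth muscle actin, at 416 and 577 CPM in the EC-KO mice and 134 CPM in both EC-WT mice (log2 fold change 1.92 ± 0.21 SE, edgeR adjusted p = 0.0030). DESeq2 called the same gene and none of the 5.

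*Klf2* averaged 1082 ± 538 CPM in the EC-KO mice and 705 ± 283 CPM in the EC-WT mice (SD, n = 2 each). The log2 fold change was 0.64 ± 0.31 (SE), with an edgeR unadjusted p of 0.059 and an adjusted p of 0.879. *Klf4* averaged 799 ± 199 and 556 ± 142 CPM (SD, n = 2 each). Its log2 fold change was 0.55 ± 0.22 (SE), with an edgeR unadjusted p of 0.028 and an adjusted p of 0.879. *Nos3*, at 606 ± 136 and 517 ± 86.3 CPM (SD, n = 2 each), had a log2 fold change of 0.26 ± 0.21 (SE, edgeR adjusted p = 0.919). *Thbd*, at 776 ± 87.0 and 696 ± 4.77 CPM (SD, n = 2 each), had one of 0.19 ± 0.18 (SE, edgeR adjusted p = 0.954). *Klk10*, at 741 ± 136 and 768 ± 430 CPM (SD, n = 2 each), had one of -0.03 ± 0.29 (SE, edgeR adjusted p = 0.998).

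The CPM of both EC-KO mice lay above both EC-WT mice for *Klf4* and *Thbd*, 2 of the 5 genes, and the same was true of 15.6% of all genes tested. With cells thinned to 1000 UMIs this held for neither: *Klf4* averaged 0.604 and 0.840 UMIs per cell in the EC-KO mice against 0.593 and 0.643 in the EC-WT mice, so its groups overlapped, and *Thbd* was lower in both EC-KO mice. An exact two-sided permutation test of 2 mice against 2 cannot give a p below 0.333, which *Klf4* and *Thbd* reached. Single mice decided the *Klf2* value. Its log2 fold change was 1.07 without EC-KO mouse 1 and 1.13 without EC-WT mouse 1. The same value was 0.03 without EC-KO mouse 2 and 0.28 without EC-WT mouse 2. *Klf4* ranged from 0.29 (without EC-KO mouse 2) to 0.85 (without EC-WT mouse 1). *Klk10* ranged from -0.51 (without EC-WT mouse 2) to 0.71 (without EC-WT mouse 1). With a mouse left out, the lone mouse of its group is assumed to vary like the others, so only effect sizes are given for the 5 genes. Between the 2 mice on the same flow cell, the log2 difference of EC-KO mouse 2 over EC-WT mouse 1 was 0.68 for *Klf2*, 0.51 for *Klf4*, 0.27 for *Nos3*, 0.27 for *Thbd* and -0.36 for *Klk10*, values that have no replicate.

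**Figure D2:**
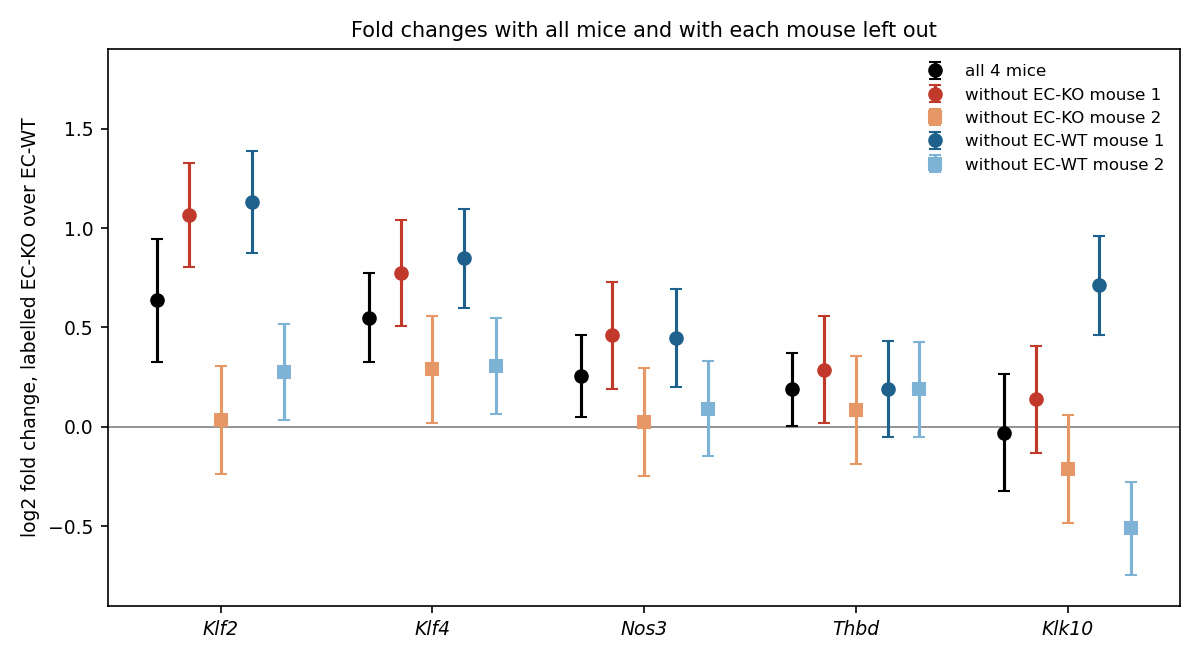
Log2 fold change of the mice labelled EC-KO over those labelled EC-WT (vertical axis) for each gene with all 4 mice and with each mouse left out. Bars are standard errors of the edgeR fit. *Klf2* moves between 0.03 and 1.13 with the mouse that is left out, *Klk10* changes sign, and *Thbd* stays between 0.08 and 0.29.

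Sums of other marker genes also differed between the mice. The 16 immediate early genes, which digestion of tissue can raise, summed to 1450, 2333, 1894 and 1431 CPM in EC-KO mice 1 and 2 and EC-WT mice 1 and 2, the same order of the mice as for *Klf2*. The 8 fibroblast markers summed to 3032 and 2037 CPM in the EC-KO mice and to 1477 and 1685 CPM in the EC-WT mice, with *Col1a1* at 0 in EC-WT mouse 1 and no other tested marker at 0. The 11 smooth muscle markers summed to 880 and 891 CPM against 334 and 299 CPM, with *Tpm2* at 0 in EC-WT mouse 2 and no other tested marker at 0. The part of the immediate early and smooth muscle genes in the values of the 5 genes was not tested. Without the cells that held a UMI of *Dcn*, a fibroblast gene, the log2 fold change was 0.74 for *Klf2* and 0.64 for *Klf4*, against 0.64 and 0.55 with them.

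The genes were detected in most cells. A UMI of *Klf2* was present in 80.5% (95% CI, 73.3 to 86.6, exact Clopper-Pearson) and 96.8% (91.0 to 99.3) of the cells of EC-KO mice 1 and 2, and in 90.3% (83.2 to 95.04) and 77.1% (65.6 to 86.3) of those of EC-WT mice 1 and 2. These intervals cover counting error only. For *Klf4* the shares were 72.5% and 89.4% against 80.5% and 71.4%. *Nos3* was detected in 77.2% and 90.4% against 70.8% and 74.3%, *Thbd* in 87.9% and 87.2% against 78.8% and 80.0%, and *Klk10* in 72.5% and 80.9% against 77.9% and 64.3%. In the smooth muscle-like cluster, whose cells had a median of 7368 UMIs, the shares were 26.7% for *Klf2* and *Nos3*, 33.3% for *Klf4* and *Klk10* and 60.0% for *Thbd*.

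The shares changed with depth. Once every cell was thinned to 1000 UMIs, *Klf2* was detected in 40.3%, 76.6%, 63.7% and 35.7% of cells in EC-KO mice 1 and 2 and EC-WT mice 1 and 2, so that the order of the mice was the same as before. *Nos3* came to 34.9%, 39.4%, 34.5% and 37.1%, and *Thbd* to 47.1% to 51.7%. The groups overlapped for both after thinning, and neither gene's groups had done so before. How many of all genes had unthinned shares without overlap was not counted, so this is no result about the 2 genes. The difference of the group means was 11.3 percentage points for *Nos3* before thinning and 1.30 after, and 8.20 and 1.60 for *Thbd*. It went from 4.97 to 8.72 percentage points for *Klf2*, from 4.94 to 7.71 for *Klf4* and from 5.59 to 4.11 for *Klk10*. Single mice set the unthinned differences of 3 genes: with a mouse left out, *Klf2* ran from -3.17 (without EC-KO mouse 2, and -1.59 without EC-WT mouse 2) to 13.1, *Klf4* from -3.50 (without EC-KO mouse 2) to 13.4 and *Klk10* from -1.21 (without EC-WT mouse 2) to 12.4 percentage points. *Nos3* ran from 4.64 to 17.9 and *Thbd* from 7.58 to 8.82. After thinning, every one of the 5 differences had an exact two-sided permutation p of 0.667 over the mice (n = 2 each).

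In cells of 1000 to 2000 UMIs (66 cells) *Klf2* stood at 1036 CPM, and in cells above 8000 UMIs (139 cells) at 845 CPM. *Nos3* went the other way, from 283 to 580 CPM over the same classes, and *Klf4* was lowest in the shallowest class, at 443 CPM, and highest from 4000 to 8000 UMIs, at 814 CPM. *Thbd* kept within 694 to 763 CPM and *Klk10* within 706 to 838 CPM over the 4 depth classes. These values are pooled over the mice, whose shares of a class differ: of the 66 shallowest cells, 15 and 9 came from EC-KO mice 1 and 2 and 30 and 12 from EC-WT mice 1 and 2, so depth and mouse are not separated in them.

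On the mean over the 4 mice, *Klf2* and *Klf4* had the highest within-mouse correlation of the 10 pairs. Correlations were taken over the 360 cells with at least 2000 UMIs, each thinned to 2000, on log(1 + UMIs) within each mouse, and are descriptions: cells of a mouse share its library. For *Klf2* and *Klf4* Pearson's r was 0.45 in EC-KO mouse 1 (134 cells), 0.27 in EC-KO mouse 2 (85 cells), 0.37 in EC-WT mouse 1 (83 cells) and 0.04 in EC-WT mouse 2 (58 cells). The mean of 0.28 placed each first on the other's ranking of 1102 candidate genes, whose median r was 0.0099 for *Klf2* and 0.0011 for *Klf4*. EC-WT mouse 2, with the lowest level of both, held almost none of this relation, and there as in EC-KO mouse 2 another pair was higher (*Klf2* with *Nos3* at 0.17 and *Klf2* with *Klk10* at 0.29).

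*Klf2* followed its targets less closely. Its mean r over the 4 mice was 0.18 with *Nos3* (0.16 to 0.22, positive in 4 of 4 mice), 0.17 with *Thbd* (0.05 to 0.25, 4 of 4) and 0.12 with *Klk10* (-0.10 to 0.29, 3 of 4). *Klf4* had a mean r of 0.10 with *Nos3*, 0.04 with *Thbd* and 0.13 with *Klk10*, and was positive in 3, 2 and 4 of 4 mice. Among the targets, the mean r was 0.10 between *Nos3* and *Thbd*, 0.13 between *Nos3* and *Klk10* and 0.12 between *Thbd* and *Klk10*. The immediate early gene *Jun* correlated with *Klf2* and *Klf4* at a mean r of 0.15 each, lower than the 2 factors with each other, and *Jund* at -0.0047 and 0.05. The mean r of *Jun* with *Klf4* was above that of each target with *Klf4*. With *Klf2* it was above that of *Klk10* and below those of *Nos3* and *Thbd*. In EC-WT mouse 2, *Jun* was at 0.20 with *Klf2* and 0.13 with *Klf4*, above the 0.04 of the 2 factors.

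**Figure D3:**
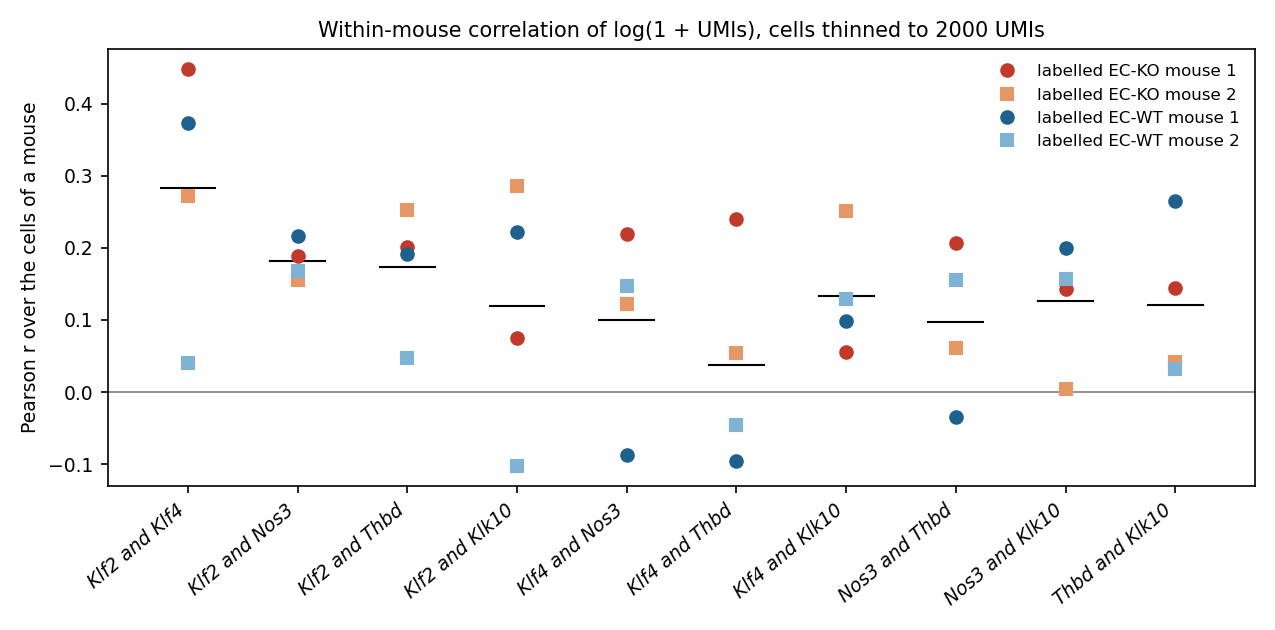
Pearson's r (vertical axis) over the cells of each mouse for the 10 pairs of the 5 genes, with 1 point per mouse and a black bar for the mean of the 4 mice. The pair *Klf2* and *Klf4* has the highest mean, 0.28, and the widest spread over mice, from 0.04 to 0.45.

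Joint detection gave the same picture in counts of cells. At 2000 UMIs, both factors were present in 51 of 134 cells of EC-KO mouse 1 (38.1%), 63 of 85 of EC-KO mouse 2 (74.1%), 53 of 83 of EC-WT mouse 1 (63.9%) and 16 of 58 of EC-WT mouse 2 (27.6%). *Klf4* was found in 68.9%, 86.3% and 79.1% of the *Klf2*-positive cells of the first 3 of these mice and in 40.0%, 66.7% and 62.5% of their *Klf2*-negative cells. These *Klf2*-negative cells numbered 60, 12 and 16. In EC-WT mouse 2 the order was the reverse, 51.6% and 63.0%, from few cells. There, 16 *Klf2*-positive cells held *Klf4* and 15 did not, against 17 and 10 *Klf2*-negative cells. All 5 transcripts were detected together in 22, 28, 19 and 2 cells, and none of them in 6, 1, 1 and 1.

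Cells with 3 or more *Klf2* UMIs after thinning held more *Klf4*, *Nos3* and *Thbd* than cells with none, in each of the 4 mice. *Klf4* averaged 2.94 UMIs against 0.933 in EC-KO mouse 1, 2.79 against 1.50 in EC-KO mouse 2, 2.13 against 0.875 in EC-WT mouse 1 and 1.78 against 1.11 in EC-WT mouse 2. The ratio was 1.60 to 3.15 for *Klf4*, 1.60 to 2.53 for *Nos3* and 1.45 to 1.76 for *Thbd*. *Klk10* was 1.26, 4.14 and 2.38 times higher in EC-KO mice 1 and 2 and EC-WT mouse 1 and 0.778 times as high in EC-WT mouse 2. The *Klf2*-high class of EC-WT mouse 2 had 9 cells. Classes with no *Klf2* UMI were also small in EC-KO mouse 2 (12 cells, 6 *Klk10* UMIs) and EC-WT mouse 1 (16 cells, 17 *Klk10* UMIs). They had 60 cells in EC-KO mouse 1 and 27 in EC-WT mouse 2. *Nos3* was higher at each step across the 3 classes in all 4 mice, whereas *Thbd* was no higher in cells with 1 or 2 *Klf2* UMIs than in those with none in 3 of the 4. The *Klf2*-high cells were also shallower before thinning in 3 of 4 mice, with medians of 7419 against 10776 UMIs in EC-KO mouse 2, 4689 against 7888 in EC-WT mouse 1 and 3574 against 10433 in EC-WT mouse 2. In EC-KO mouse 1 they were at 6706 against 6713. The summed endothelial markers averaged 20.8 to 28.3 UMIs per cell in the *Klf2*-high classes and 20.7 to 28.0 in the classes with none. The summed immediate early genes were higher in the *Klf2*-high class in 4 of 4 mice, at 3.58 against 2.90 UMIs per cell in EC-KO mouse 1, 5.86 against 2.42 in EC-KO mouse 2, 4.93 against 4.50 in EC-WT mouse 1 and 4.0 against 2.52 in EC-WT mouse 2. The smooth muscle markers averaged 1.0 against 2.38 UMIs per cell in EC-KO mouse 1, 1.60 against 2.0 in EC-KO mouse 2, 0.233 against 2.50 in EC-WT mouse 1 and 0.778 against 0.481 in EC-WT mouse 2, and so were lower in the *Klf2*-high class in 3 of 4 mice. The fibroblast markers were lower in that class in the 2 EC-KO mice (5.58 against 8.47 and 4.19 against 6.08) and higher in the 2 EC-WT mice (3.77 against 3.19 and 6.0 against 4.0). The part of these 3 lists and of depth in the other values was not tested.

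**Figure D4:**
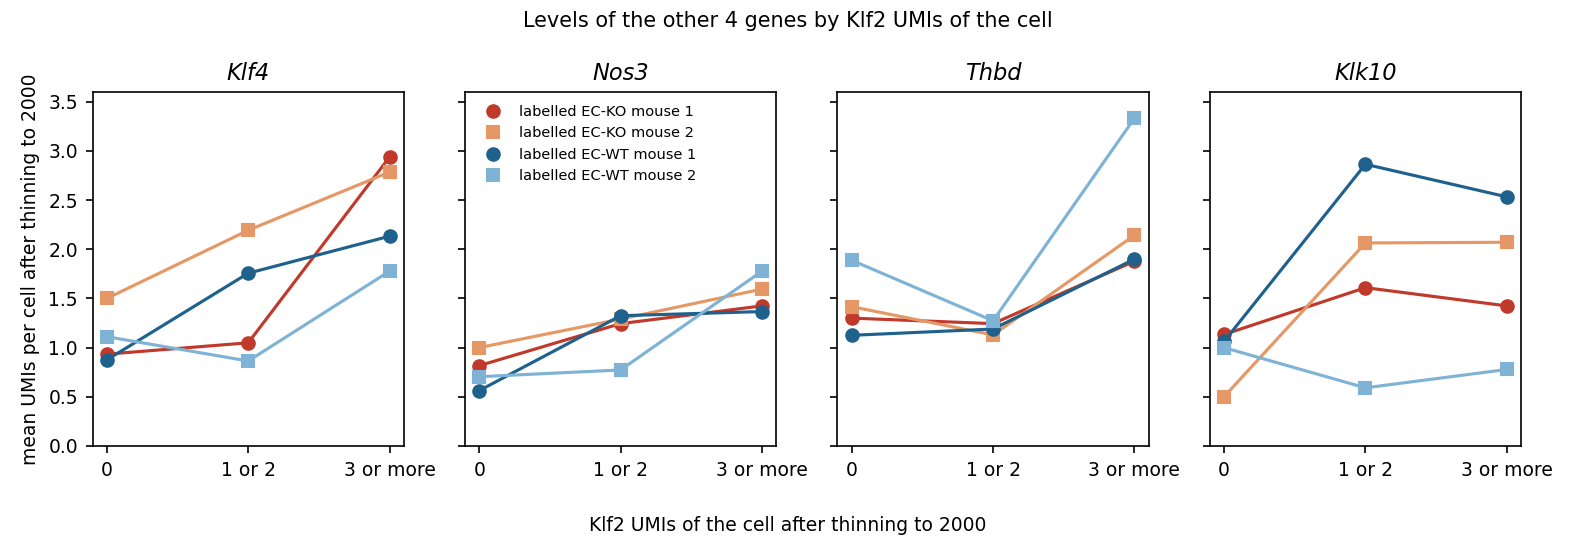
Mean UMIs per cell of *Klf4*, *Nos3*, *Thbd* and *Klk10* (vertical axis, cells thinned to 2000 UMIs) in cells with 0, 1 or 2, and 3 or more *Klf2* UMIs, with 1 line per mouse. *Klf4*, *Nos3* and *Thbd* end higher than they begin in all 4 mice, and *Klk10* in 3 of them.

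The genes most like each member in this measure differed between members, with mean r over the 4 mice in parentheses. After *Klf4* (0.28), *Klf2* was most like *Ptprj* (0.25), a receptor tyrosine phosphatase, *Sulf2* (0.23), a heparan sulfatase, *Epas1* itself (0.23) and *Srgn* (0.22), the proteoglycan serglycin. *Klf4* was followed, after *Klf2*, by *Timp3* (0.22), an inhibitor of metalloproteinases, *Slc9a3r2* (0.20), *Podxl* (0.20), an apical sialomucin, and *Klc1* (0.19). The last 3 were highest in EC-WT mouse 2 (58 cells), at 0.35, 0.38 and 0.37, and ran from 0.06 to 0.24 in the other mice. *Nos3* was most like *Fbln2* (0.25), a matrix protein, then *Stt3b* (0.22), *Meg3* (0.21), *Epas1* (0.21) and *Pecam1* (0.21), the gene of the sorted marker CD31. *Thbd* was most like *Gsn* (0.22), gelsolin, then *Sulf2* (0.21), *B230219D22Rik* (0.19), *Laptm4a* (0.19) and *Azin1* (0.19). *Klk10* was most like *Cytl1* (0.30), *Serpinb6b* (0.27), *Emp2* (0.24), *Eln* (0.21), elastin, and *Gja5* (0.21), connexin 40 of arterial EC. No gene stood among the first 5 of *Klk10* and of another member, and *Epas1* and *Sulf2* each stood on 2 of the lists.

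Across the clusters, *Klk10* was the gene with the sharpest boundary. Clusters were built without the 5 genes among the variable genes and are named by their leading gene, and the levels are descriptions. In the cluster led by *Fabp4* and *Cd36*, genes of fatty acid transport that mark capillary EC, *Klk10* gave 8 UMIs in 23 cells, 2 in each mouse. This is 56.1 CPM, with an exact Poisson interval of 24.2 to 110 for counting error. The other 4 clusters outside the smooth muscle-like one stood at 553 to 925 CPM, and the mean over mice was 11.0 to 15.7 times higher there, with the same order in 4 of 4 mice. The share of cells with a *Klk10* UMI was 30.4% in the *Fabp4* cluster (median 5631 UMIs) and 33.3% in the smooth muscle-like cluster (median 7368 UMIs). Over all its cells the *Fabp4* cluster held 673 CPM of *Klf4* and 813 CPM of *Thbd*, within the range of the other 4 clusters for both. *Klf2*, at 435 CPM against 449 to 1214, and *Nos3*, at 336 against 431 to 671, lay below the range of those clusters. Single mice supplied much of the *Klf4* and *Thbd* UMIs. EC-KO mouse 1 gave 53 of 96 for *Klf4*, and EC-KO mouse 2 gave 52 of 116 for *Thbd*. *Klf4* was at 1443 CPM in EC-KO mouse 1 and at 282 to 576 CPM in the other mice.

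Mean levels over the 4 mice ordered the clusters of *Klk10* as follows (SD, n = 4): 893 ± 224 CPM for the cluster led by *Vmn2r55*, 876 ± 346 for that led by *Meg3*, 654 ± 276 for *Chad*, 624 ± 346 for *Dcn*, 56.8 ± 7.92 for *Fabp4* and 39.3 ± 48.6 for the smooth muscle-like *Tagln* cluster. Of these neighbours, *Meg3* over *Chad* and *Dcn* over *Fabp4* held in 4 of 4 mice, and *Vmn2r55* over *Meg3* and *Chad* over *Dcn* in 2 of 4.

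*Klf2* was ordered differently. It came to 1243 ± 672 CPM in the *Vmn2r55* cluster, 1102 ± 439 in *Meg3*, 871 ± 506 in *Chad*, 487 ± 165 in *Dcn*, 427 ± 388 in *Fabp4* and 261 ± 285 in *Tagln* (SD, n = 4). *Meg3* over *Chad* and *Chad* over *Dcn* held in 4 of 4 mice, *Vmn2r55* over *Meg3* and *Dcn* over *Fabp4* in 3 of 4. Cells of the *Dcn* cluster, whose leading genes include *Thbs1*, *Edn1*, *Bmp4* and *Cyr61*, had 1.79 to 2.55 times less *Klf2* than those of the *Chad*, *Meg3* and *Vmn2r55* clusters. This cluster also held the most fibroblast marker UMIs of the 5 clusters outside the smooth muscle-like one, 3216 CPM against 266 to 1923. Of these 5 it likewise held the most smooth muscle marker UMIs, 1068 CPM against 430 to 660. It held the fewest UMIs of immediate early genes, 1237 CPM against 1436 to 2467, and of endothelial markers, 9698 CPM against 11015 to 13848. The part of these 4 lists in the *Klf2* level was not tested. EC-KO mouse 2 had the highest *Klf2* of the 4 mice in 4 of the 5 clusters (2180 CPM in *Vmn2r55*, 1689 in *Meg3*, 1565 in *Chad* and 708 in *Dcn*). In *Fabp4*, EC-KO mouse 1 led with 1008 CPM from 37 UMIs in 6 cells, and EC-KO mouse 2 was the lowest with 203 CPM. In none of the 5 did both EC-KO mice lie above both EC-WT mice.

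*Klf4* followed *Klf2* in part. It was 874 ± 134 CPM in *Meg3*, 673 ± 528 in *Fabp4*, 663 ± 302 in *Chad*, 629 ± 109 in *Vmn2r55*, 462 ± 188 in *Dcn* and 192.6 ± 208 in *Tagln* (SD, n = 4). *Meg3* lay above *Vmn2r55* and *Dcn* in 4 of 4 mice, while the order of *Fabp4*, *Chad* and *Vmn2r55* held in 1 of 4 for each neighbouring pair. *Nos3* came to 661 ± 78.2 CPM in *Meg3*, 650 ± 52.3 in *Chad*, 480 ± 138 in *Dcn*, 447 ± 108 in *Vmn2r55*, 328 ± 205 in *Fabp4* and 119 ± 181 in *Tagln* (SD, n = 4). The first 2 did not differ in order (2 of 4 mice), and *Chad* over *Dcn* held in 4 of 4. *Thbd* was 890 ± 93.9 CPM in *Meg3*, 868 ± 603 in *Fabp4*, 668 ± 158 in *Vmn2r55*, 613 ± 101 in *Dcn*, 563 ± 87.9 in *Chad* and 217 ± 236 in *Tagln* (SD, n = 4), and no neighbouring pair kept its order in all 4 mice. The *Meg3* cluster was therefore first or second for each of the 5 genes, and had the deepest cells, with a median of 9501 UMIs against 2218 in *Vmn2r55*.

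In the smooth muscle-like cluster, 54 of the 65 *Klf2* UMIs and 30 of the 41 *Klf4* UMIs came from the 4 cells of EC-KO mouse 2, and the single cell of EC-WT mouse 1 held none of the 5 transcripts.

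**Figure D5:**
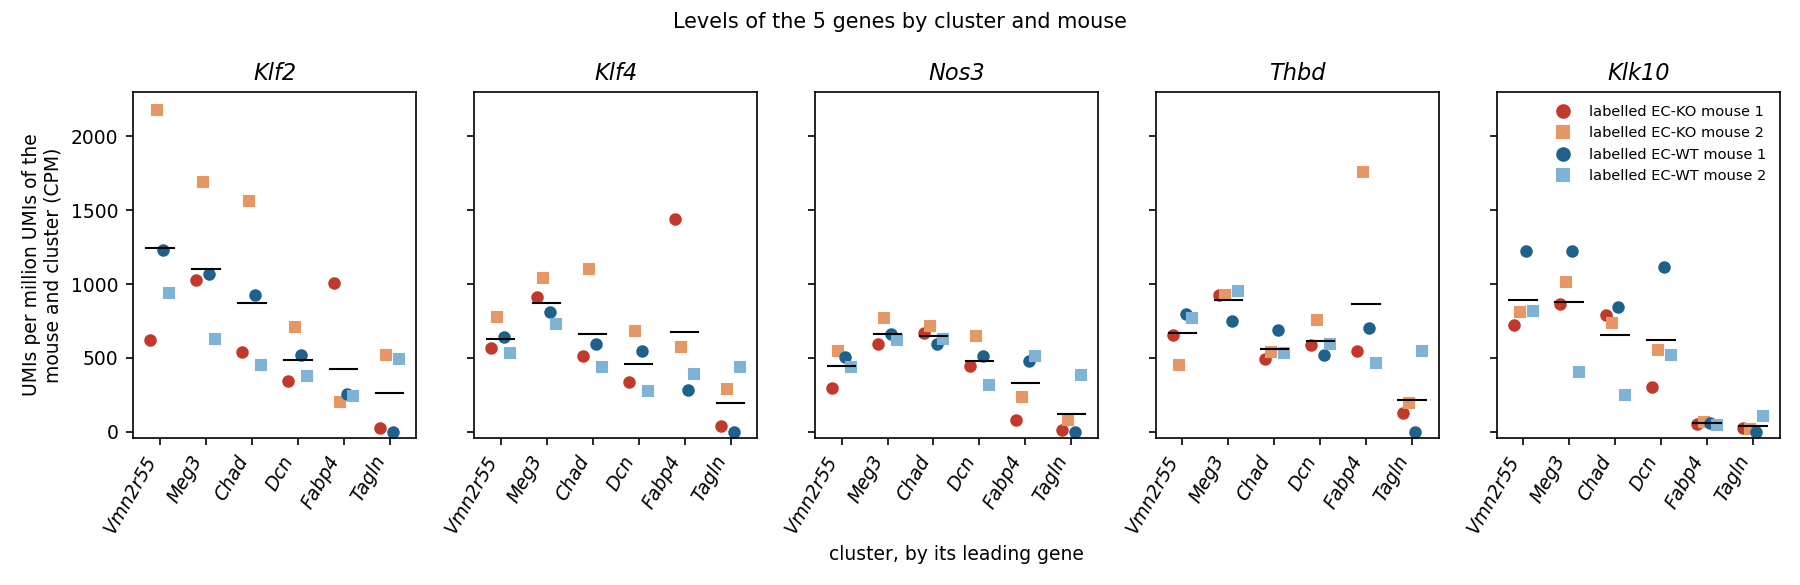
CPM of each gene by cluster and mouse (linear axis), with clusters named by their leading gene and black bars for the mean of the 4 mice. *Klk10* drops to 48.8 to 67.7 CPM in the *Fabp4* cluster in all 4 mice, and *Klf2* of EC-KO mouse 2 stands above the other mice in the 4 largest clusters.

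Fitted within the *Meg3*, *Chad*, *Vmn2r55* and *Dcn* clusters, the 5 genes had edgeR adjusted p-values of 0.836 to 0.997. Of all genes tested in these fits, 1 of 5690 was called in *Meg3*, 0 of 2124 in *Chad*, 28 of 1828 in *Vmn2r55* and 2 of 3973 in *Dcn*. *Klf2* had a log2 fold change of 0.68 ± 0.26 (SE) in the *Meg3* cluster, 0.60 ± 0.46 in *Chad*, 0.44 ± 0.31 in *Vmn2r55* and 0.22 ± 0.35 in *Dcn*. *Klk10* ran from -0.95 ± 0.40 in *Dcn* to 0.46 ± 0.42 in *Chad*. In the *Fabp4* cluster, with 3 to 8 cells per mouse, *Klf2* and *Klk10* did not pass the filter on low counts, and a gene could pass it through the group where it was high, so no fold change is given there. *Klf2* gave 37 and 6 UMIs in EC-KO mice 1 and 2 and 9 and 10 in EC-WT mice 1 and 2. *Klf4* gave 53 and 17 against 10 and 16 UMIs, *Nos3* 3 and 7 against 17 and 21, and *Thbd* 20 and 52 against 25 and 19.

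Of the genes listed for their pathways, none was called by edgeR at an adjusted p of 0.05 (0 of 76 tested genes in 8 lists, of which 7 had an unadjusted p under 0.05, against 5.48% of all genes tested), nor was any by DESeq2. Over all 8161 genes the median log2 fold change was 0.0023 and 50.4% were above 0. In the cascade from flow to the KLF genes, 8 of the 10 tested genes were above 0 with a median of 0.16, from -0.32 for *Ccm2*, which restrains MEKK3, to 0.59 for *Map2k5*, which encodes MEK5. Of the other KLF family genes, 7 of 9 were above 0 with a median of 0.39, from -0.29 for *Klf16* to 0.83 for *Klf12*.

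Among 13 genes induced by KLF2, KLF4 or high shear, 6 were above 0 and the median was -0.0019. They ran from -0.88 for *Ass1*, which remakes arginine for nitric oxide synthesis, to 0.43 for *Adamts1*, a matrix protease. For the 9 tested genes that KLF2 lowers or disturbed flow raises the median was 0.08, and the highest value was 1.20 for *Ctgf*, connective tissue growth factor. The nitric oxide list had 11 of 16 genes below 0 and a median of -0.12, from -0.93 for *Ddah1*, which breaks down an inhibitor of nitric oxide synthase, to 0.51 for *Nosip*. Around thrombomodulin and protein C, 3 of 6 were above 0 with a median of 0.03, and the highest value was 0.45 for *F5*, coagulation factor V. Of 3 kallikreins tested, *Klk1* was lowest at -2.10 (5.42 and 7.19 against 39.9 and 14.9 CPM, from few UMIs) and *Klk11* highest at 0.15. Immediate early genes had 9 of 13 above 0 with a median of 0.22, from -0.24 for *Jund* to 0.75 for *Dusp1*, a phosphatase of MAP kinases.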

How the data were processed

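Raw UMI counts per gene and well were deposited by the authors for 4 plates of 384 wells, with read counts. The deposited transcript tables hold estimated counts, which the authors made by correcting UMI counts for identifier saturation. The submitters' processing notes name BWA 0.7.15, Seurat and GRCm38 (mm10). The annotation used for counting is not given in the sources used here. The plates use the same 384 well barcodes by design, and no doublet caller was run. UMIs were summed per mouse over cells outside the smooth muscle-like cluster (605881 to 1106430 per mouse) and tested with edgeR 4.0.16 (TMM, filterByExpr, quasi-likelihood, Benjamini-Hochberg). DESeq2 1.42.0 was an alternative. Clusters came from Seurat 5.3.0 (R 4.3.3) at resolution 0.7. On simulated counts of this comparison, 163 of 200 genes changed by 2 on the log2 scale were recovered among 8161, with 0 others called. Changes of the size seen for the 5 genes, -0.03 to 0.64, were not simulated, so this recovery does not cover them. Mice are separate animals, and their numbers pair no samples in the labels. Thinning drew UMIs without replacement. Genes are named as the 5 members, the 5 genes most like each, and the highest, lowest and called genes of each list. The lowest gene of 2 lists is not reported here. The members and lists were chosen with earlier results of these data known. The alternatives without *Rn45s*, without mitochondrial genes and without cells with a *Dcn* UMI were chosen after seeing the data. Sequences are from RefSeq.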

Additional observations from a re-analysis of the deposited data

Results flagged for a closer look

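Wells of plate rows L to P held no well that passed as a cell (0 of 480), yet held transcripts of all 5 genes. Each summed to more than 3 counts, the limit that an observed 0 allows. As these wells did hold UMIs, that limit is no test of the 5 genes. Summed over the 4 plates there were 15 UMIs of *Klf2* (14 wells), 18 of *Klf4* (17 wells), 5 of *Nos3* (5 wells), 8 of *Thbd* (8 wells) and 28 of *Klk10* (23 wells), out of 33048 UMIs in these wells. Relative to all UMIs of these wells this is 454 CPM for *Klf2*, 545 for *Klf4*, 151 for *Nos3*, 242 for *Thbd* and 847 for *Klk10*. Each plate gave 6 to 8 UMIs of *Klk10* and 0 to 3 of *Nos3*.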

How the results depend on the processing

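With the replicate number as a replicate block, 1 gene was called (*Lum* in place of *Acta2*), *Klk10* was at 0.075 and no other member changed sign or call; the labels do not say that the numbers pair mice, and the deviations of same-numbered mice correlated at -0.036 over 8161 genes. The count of called genes, 1 in the report, was 21 with no filter on low counts, 2 with at least 50 UMIs, 0 with read counts, 11 with all kept cells, 2 with a minimum of 2000 UMIs, 3 without cells over 3 times the median and 0 with cells thinned to 1000 UMIs, and ran from 18 to 79 with a mouse left out. Over these alternatives *Klf2* stayed between 0.45 and 0.74 and *Klf4* between 0.41 and 0.64, and with a mouse left out they ran from 0.034 to 1.13 and from 0.29 to 0.85. *Nos3* ran from 0.06 to 0.30, and from 0.03 to 0.46 with a mouse left out. *Thbd* was at 0.19 in the report, -0.20 with cells thinned to 1000 UMIs, 0.09 with all kept cells and 0.38 with read counts, and ran from 0.08 to 0.29 with a mouse left out. *Klk10* was above 0 with read counts (0.18), without cells over 3 times the median (0.19) and without cells with a *Dcn* UMI (0.018), and ran from -0.51 to 0.71 with a mouse left out. The difference in the share of cells with a *Klf4* UMI was -2.78 percentage points with a minimum of 2000 UMIs and 8.35 with a minimum of 500, against 4.94 in the report. For *Klf2* it was 2.82 with a minimum of 2000 UMIs, 2.86 with all kept cells and 7.62 with a minimum of 500, against 4.97. For *Nos3* it was 5.77 with a minimum of 2000 UMIs, against 11.3. The causes of these shifts were not tested. Precision is limited by 2 mice a group and by 276 to 1220 UMIs of a member per mouse.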
